A study of Gallus gallus with 12 samples.

Results

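A set of 46 genes had a higher value in Hensen's node than in the tissue beside it in every chick (Gallus gallus) embryo profiled, out of 13106 genes in the deposited table. The genes were chosen on the measured values themselves. In the authors' normalized counts (read counts over a size factor of each library), the node value was at least 25% above the lateral value in each of 6 embryos. The node value was also at least 10 in all 6 node libraries, and the mean over the 12 libraries was at least 50. A total of 4414 genes met the conditions on level, and 55 of them met the whole rule. Of 13 genes set aside by name, 9 met it, among them Brachyury (T), transferrin (TF), SALL1 and the Nodal co-receptor CFC1, and the 46 genes are the others. With node and lateral libraries exchanged in the same rule and no gene set aside, 32 genes passed. Because the node and lateral values chose the genes, every node value and ratio given for them describes the choice and tests nothing.

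The 12 RNA sequencing libraries came from 6 embryos with no genetic change named in the labels, and each embryo gave 1 node and 1 lateral library. The Organiser was marked with a fluorescent label as gastrulation ended, and the embryos were grown on to 8 somites (embryo 1 of each method) or 9 somites (the others). Node libraries held the fluorescent cells still in the mature Organiser, and lateral libraries held the neighbouring ectoderm and mesoderm. In 3 embryos the cells were separated by hand from live tissue (manual 1 to 3). In the other 3 they were taken by laser-capture microdissection (LCM 1 to 3) from paraffin sections after fixation in modified methacarn. Replicates are separate embryos, each method has its own embryos, and each extraction gave 1 to 7 ng of total RNA that was amplified with the SMARTer low RNA kit.

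Hensen's node is the Organiser of birds, the group of cells at the tip of the primitive streak that induces and patterns the neural axis. Once gastrulation is over it persists at the tail end of the elongating body, within a stem zone whose cells feed the notochord, floor plate and somites. Node cells are known for secreted signals and antagonists of the BMP, Nodal, Wnt and Hedgehog pathways, for cilia, and for a sugar-rich matrix around the forming notochord.

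Depth was similar across libraries, from 18568123 to 30997461 counts, but the number of genes counted was not. It was 7235 and 7377 in the lateral libraries of LCM 1 and LCM 2 and 7590 in LCM node 1. The highest number was 11497, in manual lateral 1. Summed CPM of 7 notochord and node markers was higher in the node library of 6 of 6 embryos, at 456 to 1521 in node and 45.8 to 913 in lateral libraries, so the ranges of the populations overlapped. The sum includes T, which itself met the rule. In LCM 1, T had a normalized count of 29389 in node against 18871 in lateral, while GNOT1 was reversed, at 276 against 1309. GNOT1 was higher in node in the other embryos, by little in LCM 2 (734 against 728). SHH, a defining marker, was at 0 in all LCM libraries. The node sum was higher in 1 of 6 embryos for 5 neural plate markers and for 13 endoderm markers, in 3 of 6 for surface ectoderm, in 4 of 6 for presomitic mesoderm and in 5 of 6 for neural crest. Gene by gene the picture differed, since the most counted markers set the sums. Positive fitted node minus lateral values were found for 10 of 12 tested endoderm markers, 2 of 5 of neural plate, 2 of 7 of surface ectoderm, 4 of 4 of presomitic mesoderm and 2 of 4 of neural crest, against 57.8% of all tested genes. No marker is among the 46 genes, which the choice fixes in part. The markers T, GNOT1, TF and SNAI2 were set aside by name, and T and TF met the rule. The part of other tissues in the values of the 46 genes was not tested. In these bulk samples, fewer cells of a type and less RNA per cell cannot be told apart. The node library of LCM embryo 2 stood apart. It held 100 of 104 genes that were counted at 100 or more in the lateral library of manual embryo 1 and in no other embryo, at 6.22% of that library's counts. Results below keep that share unless they are said to be given with it subtracted. The marker sums and fits above keep it too. All LCM node 2 counts of the endoderm markers RBP4 (2280) and APOA1 (138) lie within it, against normalized LCM 2 lateral values of 10.7 and 0. Its part in the other endoderm markers was not examined, so their positive fits do not show endoderm in the node.

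The node excess of the 46 genes was modest in the embryo where each was weakest. The smallest of a gene's 6 node/lateral ratios was 2 or more for 8 genes, 1.5 to 2 for 18 and below 1.5 for 20, with a median of 1.58 and a range from 1.255 to 12.4. Manual embryo 1 held the smallest ratio for 17 genes, and the other embryos for 4 to 8 each. Each lateral value was then set to that of at least 3 counts, which limits ratios over libraries near 0. This covers counting error only, and a transcript missed in a lateral library would still raise its ratio. The median ratio over the genes was 2.15, 3.23 and 2.70 in manual embryos 1 to 3. It was 8.53, 7.51 and 3.04 in LCM embryos 1 to 3.

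The large ratios in LCM embryos 1 and 2 went with lateral libraries in which many of these genes were nearly uncounted. A lateral count of 3 or fewer was found for 22 of the 46 genes (47.8%) in LCM embryo 1 and for 20 (43.5%) in LCM embryo 2. The shares over all 4414 genes of sufficient level were 10.8% and 8.45% there. In the other lateral libraries the numbers were 0, 3 and 8 of the 46 genes in manual embryos 1 to 3 and 6 in LCM embryo 3. At least 1 such lateral library was found for 30 genes, and 3 or more for 7 genes. A lateral count this low meets the ratio in that embryo nearly by itself once the node value is 10 or more, so the rule favours such genes and their excess over the other genes is not a finding. The lowest node count of any of the genes was 13.

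**Figure D1:**
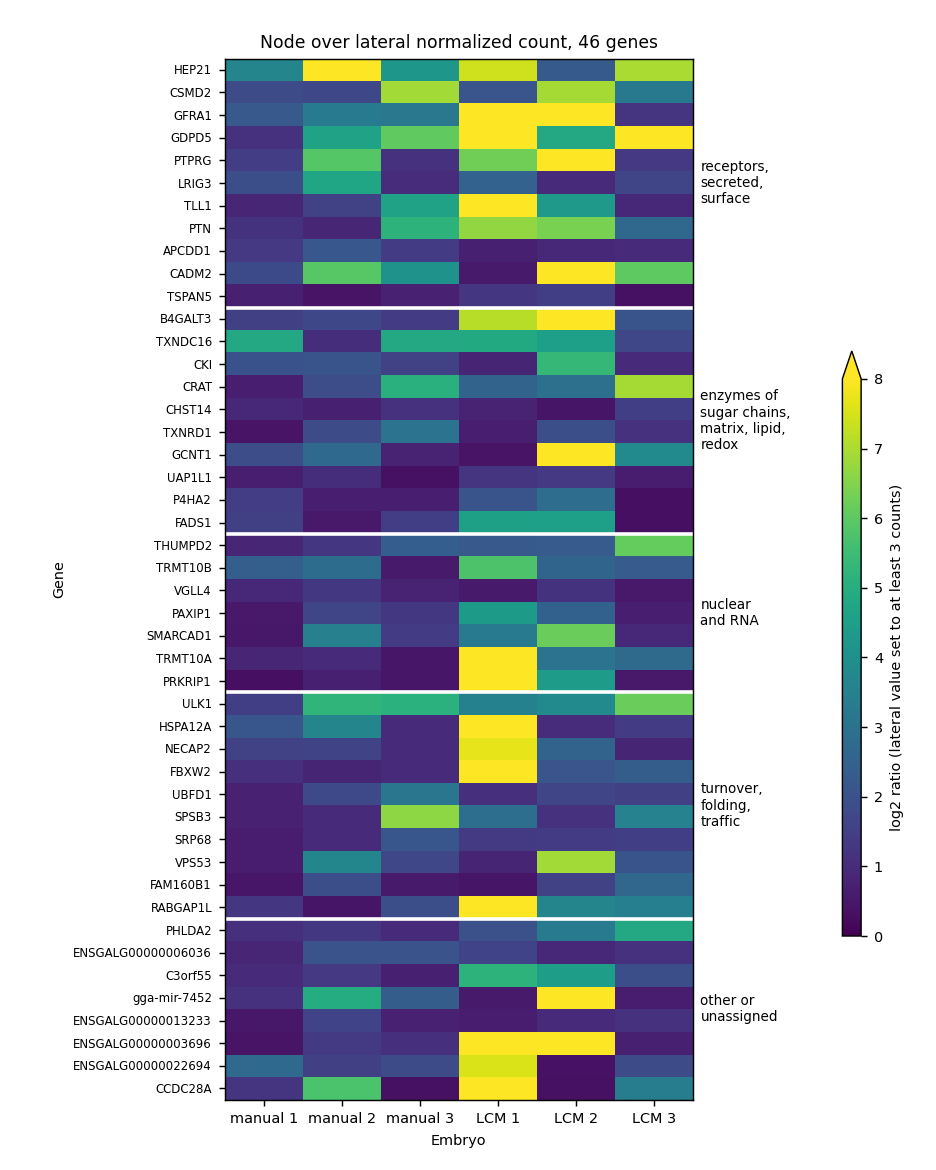
Log2 ratio of node to lateral normalized count for 46 genes (vertical, grouped by role) in 6 embryos (horizontal), with the lateral value set to at least that of 3 counts and colours saturated at 8. The brightest cells lie mainly in LCM 1 and LCM 2, where the median ratio was 8.53 and 7.51, and the darkest column is manual 1, with 2.15.

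The group of receptors, secreted and cell surface proteins had 11 members and the highest median smallest ratio of the role groups, 1.94. GFRA1, the membrane-anchored co-receptor that binds GDNF and passes its signal to RET, lies on chromosome 6 at 28152303 to 28288081 in the files' own coordinates, whose build the sources used here do not state. Its normalized counts were 881, 4124 and 2153 in manual node libraries 1 to 3 against 189, 411 and 233 laterally. For LCM embryos 1 to 3 they were 2019, 633 and 159 against 1.05, 0.825 and 68.3. The lateral value was high in all manual embryos and close to 0 in LCM 1 and LCM 2, while the LCM 3 node value lay below every manual lateral value, so the groups overlapped. The fitted log2 difference was 4.10 ± 1.36 (SE).

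PTN encodes pleiotrophin, a heparin-binding growth factor of the embryonic nervous system. Its node values were 434, 601 and 227 in manual embryos against 191, 332 and 6.25 laterally, and 330.2, 208 and 12.1 in LCM embryos against 0, 0 and 0. PTN was thus uncounted in every LCM lateral library and well counted in the manual lateral libraries of embryos 1 and 2. The lowest node value, in LCM 3, stood apart from the other node values.

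TLL1, a tolloid-like metalloprotease of the family that cleaves the BMP antagonist chordin, had 516, 1698 and 76.5 in manual node libraries against 285, 577 and 2.08 in lateral ones. The LCM values were 1744, 1809.8 and 1631 against 1.05, 92.4 and 875. APCDD1, a membrane protein known to inhibit Wnt signalling, was counted in all 12 libraries, with a smallest ratio of 1.63 in LCM 1. Its values were 1059.6, 966 and 689.5 against 420.0, 215 and 256 in the manual embryos and, by LCM, 787, 469 and 2654 against 482, 249.9 and 1341. In LCM 3 both tissues had more APCDD1 than any other library of their kind, and the median of the 6 ratios was 2.25.

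LRIG3, a transmembrane protein with leucine-rich repeats and immunoglobulin domains that takes part in neural crest induction in Xenopus, had 1887, 3268 and 3465 in manual node libraries. Its manual lateral values were 502, 122 and 1703. In LCM embryos it had 974, 707 and 1809 against 169, 364 and 562. All lateral libraries held LRIG3 counts, and the manual 3 lateral value was above the node values of LCM 1 and LCM 2. PTPRG, a receptor tyrosine phosphatase, had 309, 518 and 18.3 in manual node libraries against 114, 8.82 and 8.33, and 241, 1120.1 and 121 against 0, 2.48 and 48.2 in LCM embryos. Its manual 3 libraries were both low, and that embryo gave its smallest ratio, 2.19.

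GDPD5 encodes GDE2, a membrane enzyme that sheds lipid-anchored proteins from the cell surface and promotes motor neuron formation in chick. It had 2268, 2073 and 344 in manual node libraries against 1034, 84.3 and 5.21, and 2539, 69.8 and 1664 in LCM node libraries against 0, 0.825 and 0. The lateral value was near 0 in all LCM embryos, and the low node value of LCM 2 is within the share that matches manual lateral 1. CSMD2, a large transmembrane protein with CUB and sushi domains, had 350.5, 1002 and 368 against 97.3, 303 and 0 in the manual embryos and, by LCM, 1612, 301 and 996 against 375, 0 and 106. Its lateral libraries fell into those with none (manual 3 and LCM 2) and those with a clear signal.

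HEP21, a small secreted protein of the Ly-6 and urokinase receptor family that the RefSeq gene table names SLURP1, had the highest smallest ratio of the 46 genes, 12.4 in manual 1. It had 1333, 923 and 59.4 in manual node libraries against 108, 0.98 and 0, and 543, 11.8 and 236 in LCM node libraries against 1.05, 0 and 0. Only manual lateral 1 held more than 1 count. The LCM 2 node value rested on 13 counts, of which 9.83 match the share of manual lateral 1.

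CADM2, an immunoglobulin-type cell adhesion molecule, had 119, 180.0 and 53.6 in manual node libraries against 34, 0 and 3.12, and 399, 2153 and 121 against 269, 0 and 0.626 in LCM embryos. TSPAN5, a tetraspanin whose gene ID the RefSeq table names TSPAN17, both of the tetraspanin group that guides the protease ADAM10, had 11962, 12571 and 11863 against 7297, 9354 and 7122 in manual embryos. The LCM values were 12830.3, 7313 and 5355 against 5389, 2613 and 4207. TSPAN5 was well counted in every library and its ratios were small, from 1.27 in LCM 3 upwards, with a fitted log2 difference of 0.91 ± 0.26 (SE). CADM2 had 4 lateral libraries at 3 counts or fewer.

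**Figure D2:**
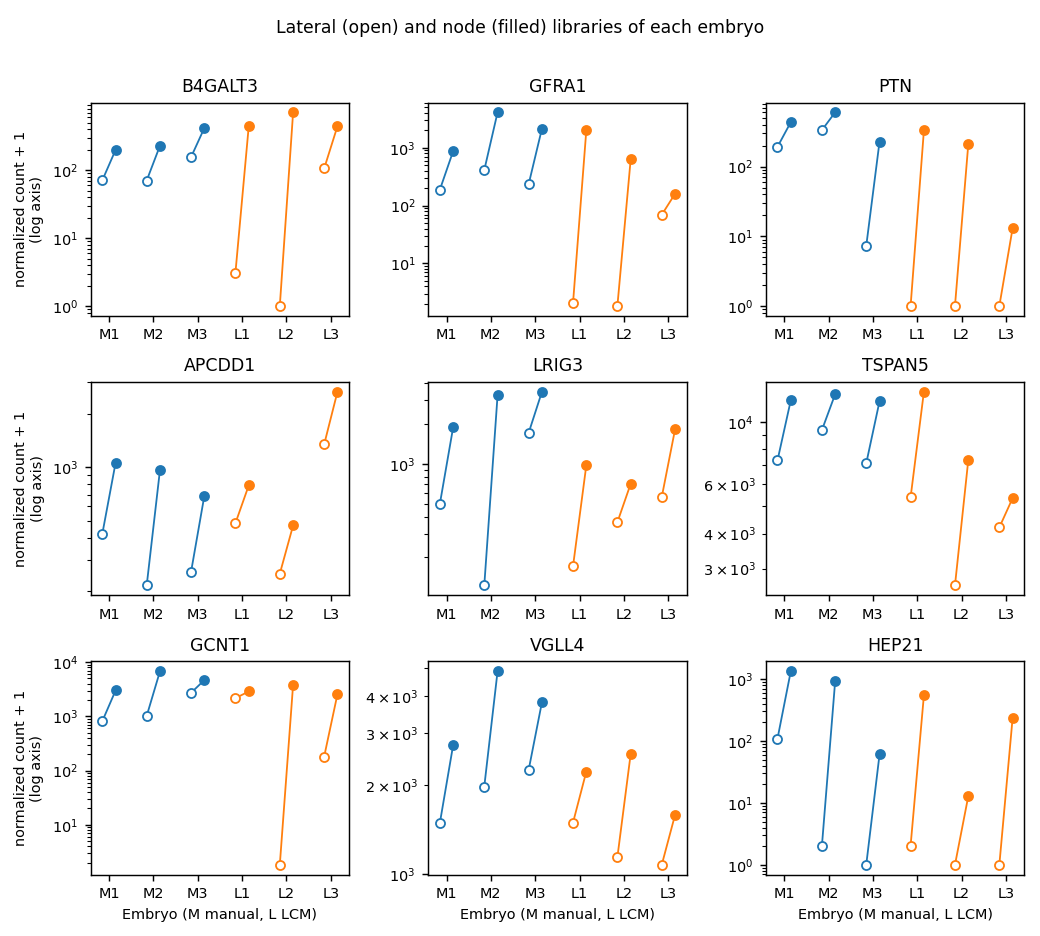
Normalized count plus 1 (log axis, scales differ between panels) of 9 genes in the lateral (open) and node (filled) library of manual embryos M1 to M3 and LCM embryos L1 to L3, each line joining the libraries of an embryo. Lines rise in every embryo because the rule chose them. B4GALT3, GFRA1 and PTN have lateral values at or near 0 in LCM 1 and LCM 2, whereas APCDD1, TSPAN5 and VGLL4 are well counted in all 12 libraries.

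Another group of 10 genes encodes enzymes of sugar chains, matrix, lipids and redox chemistry, with a median smallest ratio of 1.36. B4GALT3, a galactosyltransferase that extends sugar chains in the Golgi, had 199, 229 and 419 in manual node libraries against 70.1, 69.6 and 155, and 444, 713 and 445 in LCM node libraries against 2.09, 0 and 105. It was the only gene of the 46 whose node values all lay above all of its lateral values. The RefSeq table gives the symbol B4GALTL to this gene ID. Among the 4414 genes of sufficient level this complete separation occurred for 1 gene (0.0227%), B4GALT3 itself. In each of the other genes at least 1 lateral library exceeded a node library of another embryo.

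CKI, which the RefSeq table names B4GALT1, is another galactosyltransferase of the same family. It had 166, 412 and 276 against 41.5, 97.1 and 93.8 in the manual embryos and, by LCM, 1098, 463 and 341 against 613, 11.6 and 170.4, with both tissues highest in LCM 1. Reads shared by near-identical stretches of this family cannot be assigned with certainty. GCNT1, the enzyme that starts core 2 branches on mucin-type sugar chains, had 3018, 6827 and 4678 in manual node libraries against 816, 1019.6 and 2718. The LCM values were 2877, 3862 and 2576 against 2169.8, 0.825 and 180.4. Its lateral values ranged from near 0 in LCM 2 to a manual 3 value that exceeded the LCM 3 node value, while no node library was low.

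TXNDC16, a thioredoxin-domain protein of the endoplasmic reticulum, had 289, 278 and 87.9 against 10.2, 135 and 2.08 in the manual embryos and, by LCM, 92.1, 56.2 and 385 against 3.14, 0.825 and 118. FADS1, the delta-5 desaturase of polyunsaturated fatty acid synthesis, had 747, 1689.9 and 1995 against 263, 1150.0 and 706 and, in LCM embryos, 4558, 4685 and 3649.6 against 194, 204 and 2908. FADS1 had the smallest margin of all 46 genes, 1.255 in LCM 3, where its lateral value was high, and ratios far above that in LCM 1 and LCM 2. The other 5 enzymes had smallest ratios of 1.60 for CRAT (carnitine acetyltransferase), 1.37 for CHST14, which sulfates dermatan, and 1.34 for TXNRD1 (thioredoxin reductase). They were 1.27 for UAP1L1, related to the enzyme that makes UDP-GlcNAc, and 1.27 for P4HA2, a subunit of collagen prolyl 4-hydroxylase.

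The 10 genes of protein turnover, folding and membrane traffic had a median smallest ratio of 1.67. ULK1, the kinase that starts autophagy, had 129, 408 and 107 in manual node libraries against 46.3, 10.8 and 1.04, and 391, 34.4 and 136 against 34.5, 0 and 1.88 in LCM embryos. FBXW2, an F-box subunit of an SCF ubiquitin ligase, had 534, 1216 and 957 against 254, 683 and 486 in the manual embryos and, by LCM, 1547, 3544 and 2344 against 3.14, 826 and 457. The FBXW2 lateral value was near 0 in LCM 1 alone, and elsewhere both tissues were well counted.

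HSPA12A, a distant member of the Hsp70 family, had 309, 158 and 417 against 69.4, 12.7 and 213 in the manual embryos and, by LCM, 816, 636 and 179.9 against 1.05, 312 and 67.7. UBFD1, a protein with a ubiquitin-like domain, had 236, 342 and 111 against 141, 101 and 12.5 and, in LCM embryos, 675, 820.2 and 567 against 318, 257 and 198. SPSB3, a SOCS-box adaptor of a ubiquitin ligase, had 247, 297 and 310.5 against 148, 149 and 0 and then 23.2, 1135 and 72.8 against 3.14, 511 and 6.26. UBFD1 was counted in every library, while SPSB3 varied widely between LCM embryos and was high in both libraries of LCM 2.

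NECAP2, a factor of clathrin-coated vesicles, had 563, 438 and 216 against 193, 140.2 and 111 in the manual embryos and, by LCM, 651, 14.5 and 211 against 3.14, 0 and 118. FAM160B1, named FHIP2A in RefSeq and an adaptor between cargo and the dynein motor, had 1432, 5126 and 2901 in manual node libraries against 1012, 1338 and 1950.2. Its LCM values were 4125, 4268 and 2330.0 against 3009.9, 1425 and 377, with no library near 0. The smallest ratios of the other 3 genes were 1.56 for SRP68, a protein of the signal recognition particle, 1.53 for VPS53, a subunit of the GARP tether, and 1.37 for RABGAP1L, a Rab GTPase activator.

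VPS53 overlaps FAM57A and SLC47A1 on the opposite strand, whose mean normalized counts were 172 and 65.4. The sources used here do not state whether counting used strand. If it did not, reads in the stretches that VPS53 shares with these genes cannot be told apart. VPS53 lies at 6939662 to 6988521. FAM57A shares only its edge, up to 6939891, and the SLC47A1 span, 6860579 to 6996943, covers all of it.

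The 7 nuclear and RNA proteins had a median smallest ratio of 1.46. VGLL4, a cofactor that competes with YAP for TEAD transcription factors, had 2743, 4861 and 3819.7 in manual node libraries against 1494, 1980.3 and 2253. Its LCM values were 2225, 2553 and 1587 against 1495, 1142 and 1076. VGLL4 was well counted throughout and gave a fitted log2 difference of 0.96 ± 0.37 (SE), among the smallest of the 46. THUMPD2, an RNA methyltransferase-like protein, had 1069, 1412 and 1486 against 590.1, 589 and 285 in the manual embryos and, by LCM, 852, 498 and 518 against 179.9, 101 and 7.52.

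TRMT10A and TRMT10B, paralogous methyltransferases that modify the purine at a fixed position of tRNA, were both among the genes, with smallest ratios of 1.40 and 1.51, each in manual 3. SMARCAD1, a chromatin remodeller of the SNF2 family that helps restore heterochromatin, had 161, 233 and 239.7 against 114, 20.6 and 88.5 in manual embryos. In LCM embryos it had 1546, 180.3 and 1237 against 160.1, 0 and 655. Both libraries of LCM 3 and the node library of LCM 1 were high for SMARCAD1, and the LCM 2 lateral library held none. PAXIP1, a BRCT-domain protein of histone methylation complexes, and PRKRIP1, a spliceosome protein, had smallest ratios of 1.46 and 1.265, both in manual 1.

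The remaining 8 genes had no shared role, and 4 of them had no symbol. PHLDA2, a small pleckstrin homology domain protein imprinted in mammals, had 822, 512 and 177 in manual node libraries against 393, 207 and 90.6, and 12.4, 652 and 719 against 2.09, 67.6 and 25.1 in LCM embryos. The unnamed gene ENSGALG00000006036 had 496, 1131 and 989.7 against 275, 274 and 239 and, in LCM embryos, 1739.9, 1673 and 2154 against 573, 899 and 971. Its smallest ratio was 1.80 in manual 1, and every LCM node value exceeded every manual node value. The smallest ratios were 1.63 for C3orf55, named PQLC2L in RefSeq, and 1.29 for CCDC28A, a coiled-coil protein. A record bearing the name of the microRNA gga-mir-7452 spans chromosome 1 at 105962735 to 106008637, far longer than a microRNA hairpin. It was matched by name only, so no value is given for the microRNA.

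Because the rule used all 6 embryos, genes were also chosen in 5 embryos and read in the embryo that was left out. Choosing without manual embryo 1 gave 130 genes, of which 46 (35.4%) had a node value at least 25% above the lateral value in manual 1, against 30.3% of all genes that met the level conditions in the other 5 embryos. Without manual 2 there were 50 of 76 genes (65.8%) against 36.9%, and without manual 3 there were 49 of 93 (52.7%) against 36.3%. The shares for the LCM embryos were 51 of 114 (44.7%) against 40.7% in LCM 1, 58 of 100 (58%) against 45.1% in LCM 2, and 48 of 89 (53.9%) against 37.4% in LCM 3. At this margin the chosen genes exceeded the background in each of the 6 turns, by most in manual 2 and by little in manual 1 and LCM 1. In manual 1 this did not hold for a node excess of any size, which 49.2% of the chosen genes had against 50.8% of the background. No test was made, since genes share libraries.

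Summed over the 6 turns, 302 of 602 choices (50.2%) met the ratio in the unseen embryo, and 202 had a lateral value at least 25% above the node value there. In manual 1 the chosen genes had a lower node value more often than a higher one by that margin, 53 against 46 of 130. The share with a lower value, 40.8%, exceeded the 30.1% of the background. LCM node 2 took part in that choice and holds counts that match a share of manual lateral 1, so this turn was not free of the library it read. With that share subtracted, the lowest share meeting the ratio in any turn was 39.4%, against 35.4% as given. The part of these counts in the manual 1 turn was not tested. The same exercise for genes higher in lateral tissue, with no gene set aside, gave 201 of 402 (50%). With none of the 13 genes set aside, the node choice gave 357 of 659 (54.2%). With the 13 genes set aside and the share of manual lateral 1 subtracted from LCM node 2, the node sum was 48.5%. These figures are from alternatives chosen after the data were seen. The 46 genes are in all 6 selections by construction, and each counts as meeting the ratio in every turn. The genes that met it numbered 46 to 58 per turn, with all 46 among them. The turns also share embryos, so these shares are a description and give no support to the 46 genes.

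**Figure D3:**
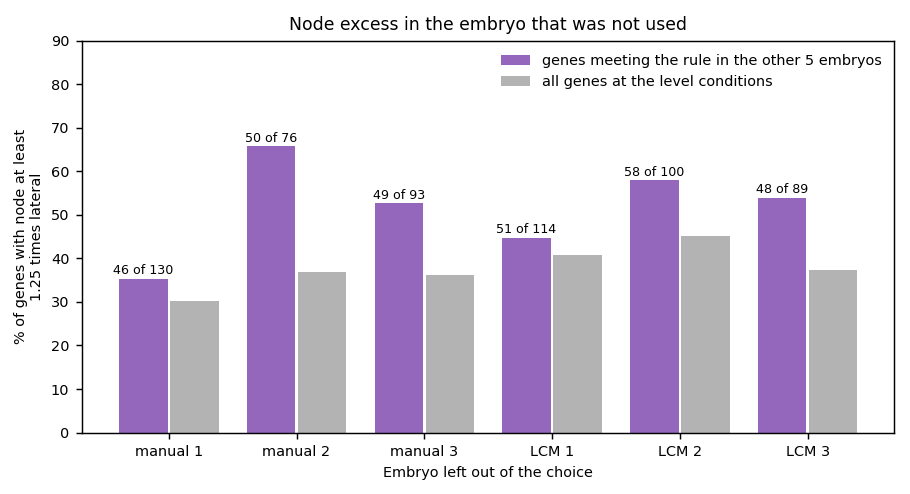
Percentage of genes with a node value at least 25% above the lateral value (vertical) in the embryo that was left out of the choice (horizontal), for genes that met the rule in the other 5 embryos (purple, counts printed above) and for all genes at the level conditions (grey). Purple exceeds grey in each embryo, from 35.4% against 30.3% in manual 1 to 65.8% against 36.9% in manual 2. Each purple bar includes the 46 genes, which meet the ratio by construction and are all of those that met it in manual 1. There the lateral value was higher by that margin for 40.8% of the chosen genes, against 30.1% of the background.

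Subtracting 6.22% of the manual lateral 1 counts from LCM node 2, which removes 8.76% of that library's counts, left 39 of the 46 genes meeting the rule. The 7 genes that no longer met it were HEP21, GDPD5, CRAT, P4HA2, NECAP2, RABGAP1L and CCDC28A. For CRAT, NECAP2 and GDPD5 the matching share was 100% of the LCM node 2 counts, which were 21, 16 and 77 counts. It was 97.0% of the 20 counts of P4HA2, 75.6% of the 13 counts of HEP21 and 69.7% of the 34 counts of RABGAP1L. CCDC28A had a matching share of only 3.98% and lay close to the threshold, at a ratio of 1.29 before. C3orf55 had 76.8% and still met the rule against a lateral value of 0. For 36 genes, GFRA1, B4GALT3, PTN, APCDD1 and TLL1 among them, the matching share was under 10%. No further gene came to meet the rule. Where these shared counts come from was not tested.

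**Figure D4:**
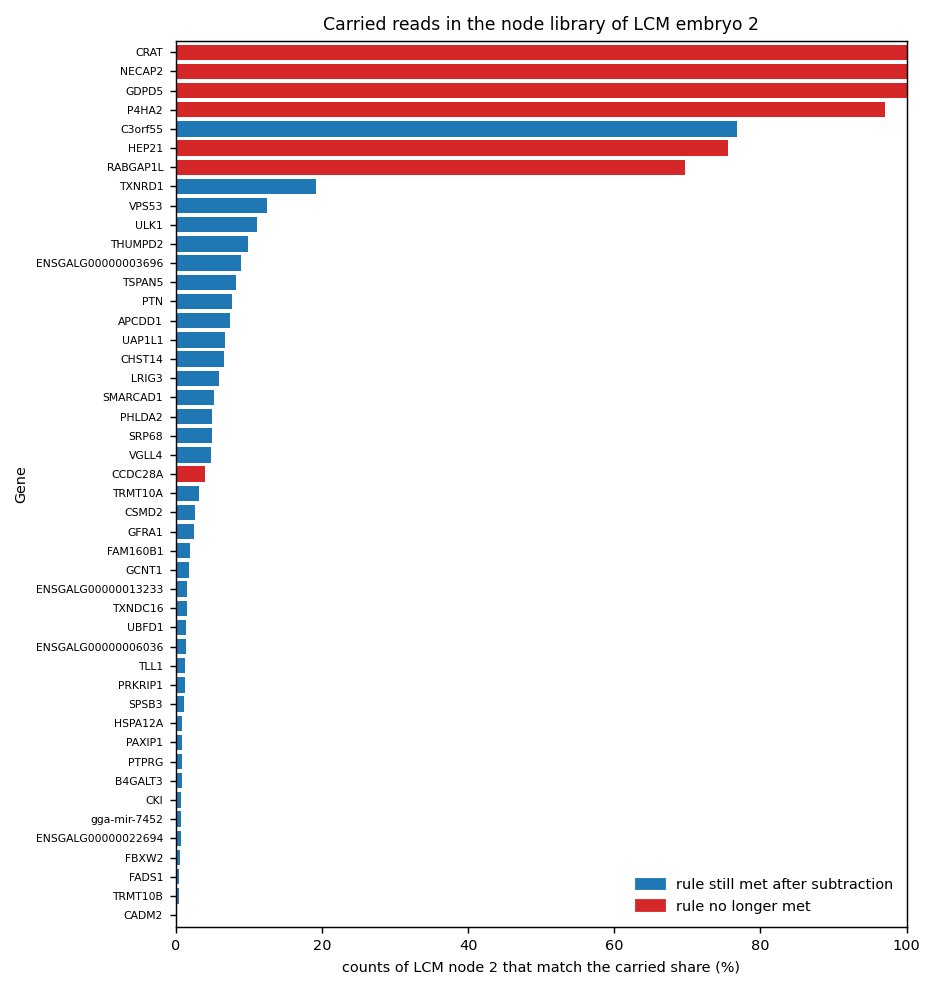
Percentage of each gene's counts in the node library of LCM embryo 2 (horizontal) that equals 6.22% of its count in manual lateral 1, called carried reads in the title, for 46 genes (vertical), capped at 100%. Red bars are the 7 genes that no longer met the rule after subtraction, of which 6 lie above 69% and CCDC28A at 3.98%.

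The level in LCM against manual embryos is a contrast that the rule did not use directly. The rule has conditions on level, and its ratio favours low lateral values, which enter the sums below. For the 46 genes this contrast is thus not independent of the choice, and their values are a description. It was tested on counts summed over the node and lateral library of each embryo, 3 sums per method, and embryo and method cannot be told apart. By edgeR's quasi-likelihood test 0 of 9113 genes (0%) passed an adjusted p of 0.05, with a smallest adjusted p of 0.055, and 1210 (13.3%) had an unadjusted p under 0.05. Of the 46 genes 0 passed and 5 had an unadjusted p under 0.05, a share below that background. There were 24 with higher and 22 with lower LCM values. Higher values were found for 2527 of the 4414 genes of sufficient level and 51.8% of all tested genes. The median log2 difference of the 46 genes was 0.34, against 0.21 over all genes of sufficient level and 0.06 over all tested genes. With the matching share subtracted from LCM node 2 edgeR called 0 of 9001 genes, 1223 had an unadjusted p under 0.05, and 3 of the 46 did. The medians were then 0.24 for the 46 genes, 0.10 over all genes of sufficient level and -0.03 over all tested genes.

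ENSGALG00000013233, a gene with no symbol, had the smallest p of the 46. Its embryo sums were 28.5, 11.9 and 7.98 CPM in manual embryos and 126, 99 and 123 CPM in LCM embryos. The log2 difference was 2.71 ± 0.61 (SE; edgeR adjusted p = 0.220), and DESeq2 called it with an adjusted p of 4.39e-04, its only call among the 46 of 721 over all genes. Without manual embryo 1, edgeR called it as well, at a log2 difference of 3.31 with an adjusted p of 0.0370.

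CADM2 differed by 3.05 ± 1.33 (edgeR adjusted p = 0.367), with 3.61, 3.79 and 1.22 CPM in manual and 16.4, 51.3 and 3.44 CPM in LCM embryos, so LCM 2 held most of the difference. FADS1 was at 24, 62.6 and 59 CPM in manual and 126, 117 and 197 CPM in LCM embryos. Its log2 difference was 1.37 ± 0.52 (edgeR adjusted p = 0.303). PRKRIP1 differed by 1.56 ± 0.68 and ENSGALG00000006036 by 1.31 ± 0.56, again without passing the threshold. At the other end CRAT was at -2.94 ± 1.60 and C3orf55 at -1.96 ± 1.13, neither past an unadjusted p of 0.05. PTN was at -1.59 ± 1.44 and GFRA1 at -1.35 ± 0.91.

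**Figure D5:**
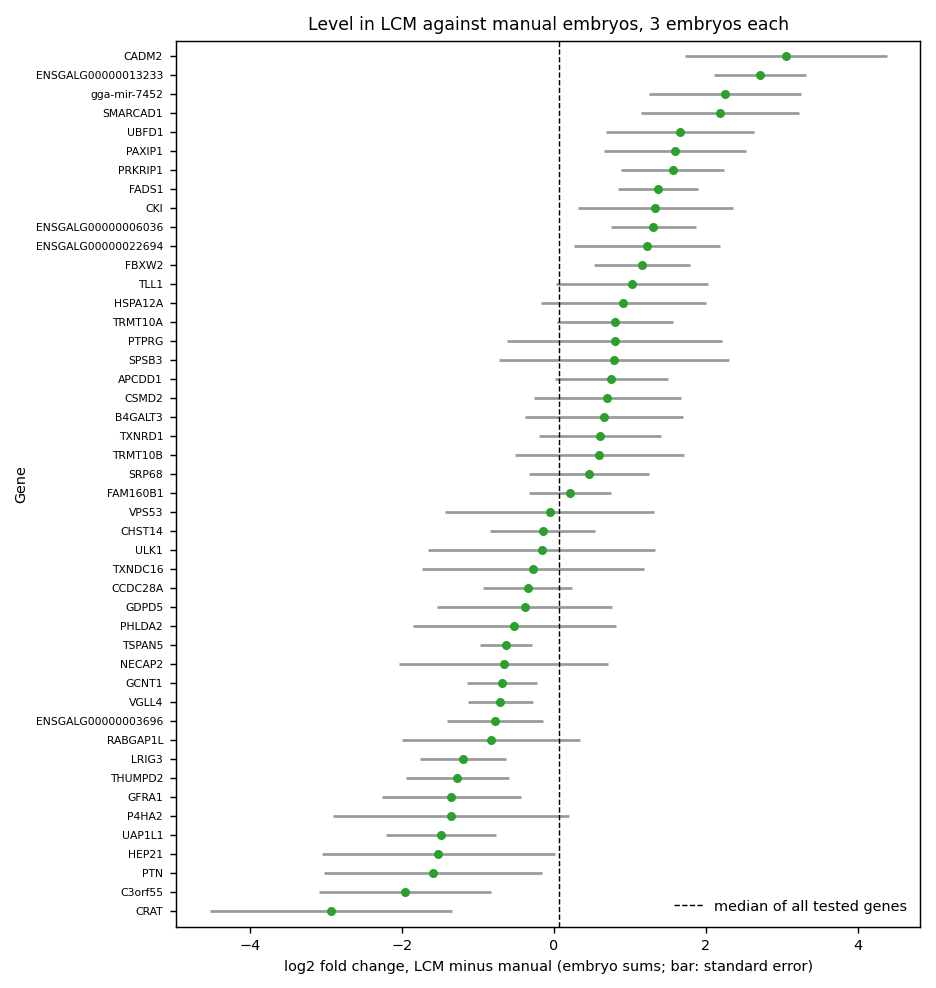
Log2 fold change of counts summed over both libraries of an embryo, LCM minus manual (horizontal, bar: standard error, 3 embryos per method), for 46 genes (vertical), with the median of all tested genes as a dashed line. The genes spread to both sides of it, from CRAT at -2.94 to CADM2 at 3.05, and none passed an adjusted p of 0.05 in edgeR.

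The node excess in LCM against that in manual embryos was fitted with a method by population term. For the 46 genes this is a description only, since it is computed from the node and lateral values that chose them, and lateral counts near 0 in LCM embryos give large ratios. Across all genes 0 of 9491 (0%) passed, with a smallest adjusted p of 0.415 by edgeR, and 246 (2.59%) had an unadjusted p under 0.05. Of the 46 genes 39 had a larger fitted node excess in LCM embryos, as had 2828 of the 4414 genes of sufficient level, with a median log2 difference of 1.94 against 0.35 over all tested genes. The 3 with an unadjusted p under 0.05 were PTN at 8.16 ± 3.46 (SE), GDPD5 at 7.14 ± 2.48 and a gene with no symbol, each with an edgeR adjusted p of 1. DESeq2 called 252 genes, 2 of the 46 among them. The median depended on the fit. It was 0.69 without the embryo block, 1.01 without manual embryo 1 (32 of 46 positive), 1.47 with the matching share subtracted from LCM node 2, and 3.03 without LCM embryo 3. The LCM lateral libraries with counts of 3 or fewer move with this result, and their part in it was not tested.

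For node against lateral over both methods, with the embryo as a block, edgeR called 0 of 9491 genes (0%), with a smallest adjusted p of 0.163, and 324 (3.41%) had an unadjusted p under 0.05. All 46 genes had positive fitted values and 22 had an unadjusted p under 0.05, which the rule brings about because it chose them on these libraries. Their median log2 difference was 2.44, against 0.17 over all tested genes. With the matching share subtracted edgeR called 0 of 9412 genes, 304 had an unadjusted p under 0.05, 18 of the 46 among them, and the median of the 46 was 2.33 against -0.06 over all tested genes. The fitted differences ranged from 0.91 ± 0.26 (SE) for TSPAN5 to 8.36 ± 1.80 for HEP21. DESeq2 called 242 genes, 21 of the 46 among them, and limma voom called 0. Without the filter on low counts edgeR called 36 genes, of which GFRA1, GDPD5, HEP21 and GCNT1 were 4 of the 46.

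The values on both sides of the threshold formed a continuum. Just inside it lay FADS1 at 1.255, PRKRIP1 at 1.265, P4HA2 at 1.266, TSPAN5 at 1.27 and UAP1L1 at 1.27. Just outside lay SRPR, a subunit of the receptor of the signal recognition particle, a fraction below the threshold, UNG, a DNA repair glycosylase, at 1.249, and ARFIP1 at 1.244. ALCAM, a cell adhesion molecule, was also at 1.244 and KIF11, a mitotic kinesin, at 1.242. Of the 4414 genes, 246 (5.57%) reached the ratio in 5 embryos and 612 (13.9%) in 4.

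By position, 3 of the genes lie on chromosome 6 within a stretch from 27536767 to 28450155. FAM160B1 comes first, then GFRA1, and HSPA12A follows GFRA1 at a distance of 125709 bases with 1 gene of the table between them. On chromosome 4, TSPAN5 and TRMT10A lie 209203 bases apart, between 59392904 and 59633939, with 5 genes between them. Otherwise the genes were spread over 21 chromosomes, with 8 on chromosome 1 (17.4%, against 14.2% of the 4414 genes). No test was made of these distances.

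Other genes of the pathways were read from lists by role, chosen with earlier results known. Of 28 genes of the Organiser, node and notochord list in the table, 17 of 19 tested had positive fitted values with a median of 1.57, and 0 passed by edgeR. The Wnt list had 35 of 41 tested genes positive (median 0.61), the FGF list 16 of 22 (1.16), the BMP, Nodal and TGF-beta list 16 of 26 (0.54) and the Notch list 15 of 22 (0.33). The Hedgehog list had 5 of 11 (median -0.38), and the mitosis and DNA replication list 35 of 77 (-0.07). None of these lists held a call by edgeR, and in this order they held 8, 4, 4, 5, 0, 0 and 1 genes at an unadjusted p under 0.05, where 3.41% of all tested genes lay. A share above that was not particular to signalling lists. It was 7 of 47 tested for glycolysis and small-molecule enzymes, 8 of 51 for actin, tubulin and motors and 8 of 45 for cell junctions. The cilia list held 2 of 58 and the HOX list 0 of 18. Positive values were found for 57.8% of all tested genes and 2801 of the 4414 genes of sufficient level, so the shares of the Notch and BMP lists lie near that background. With the matching share subtracted from LCM node 2, 2279 of the 4414 were positive. The list values were not computed with it subtracted. Of the 46 genes only GFRA1, CADM2 and SMARCAD1 were on any of the 22 lists, under receptors and channels, cell junctions and chromatin regulators. This is set in part by the genes left out by name. Before that, 3 genes of the Organiser list and 3 of cell junctions, CADM2 among them, met the rule. So did 1 gene each of the axial progenitor, Wnt, early transcription factor, secreted carrier and secretory pathway lists. A gene can be on more than 1 list.

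Several signalling genes met the ratio in 6 of 6 embryos and fell short on the minimum of 10 in a node library. FGF18, a ligand of the stem zone, had 157, 2.19 and 122 in manual node libraries against 120.5, 0.98 and 21.9, and by LCM 908, 932 and 822 against 6.28, 22.3 and 265, so only manual 2 was low, with a node value under 3 counts that gives no direction. WNT11, a Wnt ligand of cell movement, had 406, 248 and 111 against 97.3, 37.2 and 71.9 in the manual embryos and, by LCM, 1087, 2.72 and 379.9 against 0, 0 and 0, with LCM 2 low. The 3 counts of WNT11 in LCM node 2 lie wholly within the share that matches manual lateral 1, so its excess rests on the other 5 embryos. GFRA4, a relative of GFRA1 that binds persephin, had 661, 6.58 and 68.5 against 129, 0 and 1.04 and then 264, 48 and 441 against 6.28, 0.825 and 50.7. Its manual 2 node value lay below 10, and the matching share was 22.3% of its 53 counts in LCM node 2.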

How the data were processed

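RNA was measured in 12 libraries of 6 embryos, grouped by the labels' embryo, method and population. The authors deposited whole-number read counts per Ensembl gene. They also deposited a normalized signal table; its values equal counts over library size factors (largest relative deviation 0.0). Bowtie2 2.2.3 is named in the submitters' processing notes with no role; no source used here states the counter, build, annotation or strand setting (not given in the sources used here). No count row lacked a gene.

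The rule was applied to the authors' normalized table. Tests used edgeR 4.0.16 under R 4.3.3 on the counts (quasi-likelihood, TMM, filterByExpr with a minimum count of 10 and minimum total of 15). Benjamini-Hochberg adjustment ran over all tested genes, with calls at an adjusted p under 0.05. The fits were also run on simulated counts with the same dispersion for all genes and no embryo effect. That setting differs from these data, so the run says nothing about power here. DESeq2 1.42.0 and limma 3.58.1 (voom) were alternatives. Fold changes are log2 with standard errors, and CPM uses library totals. Both libraries of an embryo formed a block because the labels name the same embryo. Deviations from group means correlated at 0.569, 0.168 and 0.275 between the libraries of manual embryos 1 to 3, and at -0.00223, 0.0461 and 0.0542 for LCM embryos.

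Genes named with all values were the 20 with the highest smallest ratio, the 5 with the highest mean and those on a list of node, axial, signalling, cell type or cilia genes. The genes, roles and lists were chosen with earlier results of these data known, and roles after the genes were known. APCDD1 falls outside this rule and was given its values for its role after they were seen. ALCAM, SRPR, UNG, ARFIP1 and KIF11 were named as nearest to the threshold, and CADM2 and SMARCAD1 as list members. A RefSeq gene table (GRCg7b) served for names only and matched 41 of the 46 genes. Counting floors of 3 counts cover counting error only. With 1 to 7 ng of RNA and amplification, transcripts can be missed in single libraries. Promoter and protein sequences were not analysed here. Alternatives changed scaling, filter, tool, thresholds, the matching share in LCM node 2, the block and the embryos used.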

Additional observations from a re-analysis of the deposited data

How the results depend on the processing

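The number of genes meeting the rule depended on its thresholds. It was 26 at a ratio of 1.5, 8 at 2, 139 for any excess and 145 without the node minimum, and 76 to 130 when an embryo was left out. It stayed at 46 with no minimum or 100 as the mean, and was 57 scaled by library total (43 shared), 65 by TMM (45 shared) and 39 with the matching share subtracted. The node counts above leave out the 13 genes set aside by name, and the exchanged counts leave out none. With node and lateral exchanged, 19, 6 and 105 genes met ratios of 1.5, 2 and any excess, and 60 to 75 when an embryo was left out. With the matching share subtracted, 34 genes met the exchanged rule and 46 the node rule with none set aside. The exchanged alternatives were chosen after the data were seen.

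Node against lateral gave 242 calls in DESeq2 (21 of the 46 genes), 36 without the low-count filter (4 of the 46) and 0 to 4 when an embryo was left out, the 4 without LCM 1 and 2 without manual 1. Dropping the replicate block gave 0 calls, as did the fit with it, so the calls cannot show whether the pairing mattered. Without the block the median of the 46 genes was 1.85, against 2.44 with it. By edgeR 14 of them then had an unadjusted p under 0.05, against 22. LCM against manual gave 721 in DESeq2 (1 of the 46), 1 with RLE factors, 19 without the filter and 0 to 134 when an embryo was left out (0 to 1 of the 46), the 134 without manual 1. The difference of the node effect between methods gave 252 in DESeq2 (2 of the 46), 5 without the filter and 0 in the fits that left out an embryo. The cause of these shifts was not tested. All 552 fitted node minus lateral values of the 46 genes under 12 alternatives were positive, the lowest at 0.68, and 25 passed the threshold. The rule required a node excess in every embryo of these fits, so positive values follow nearly by themselves. The calls describe the choice as well, and neither gives support to the 46 genes.

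Lateral counts were at 3 or fewer for up to 22 of the 46 genes. The floor on ratios against those libraries covers counting error only, not transcripts missed in a library. With 3 embryos per method, differences between methods have wide errors. Only 40 of the 46 genes had enough lateral counts to compare LCM with manual lateral tissue. Their median log2 difference was -0.35, against 0.03 over the tested genes of sufficient level. In node libraries the median was 0.40 over all 46 genes, against 0.30 over the genes of sufficient level. The rule favours low lateral values and these medians cover unlike sets of genes, so their contrast tests nothing.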

Other observations

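Some genes outside the set had a node value at least 25% above the lateral value in all 6 embryos and missed the node minimum of 10 in a single library. ADAMTS3, a protease that processes procollagen and VEGF-C, had normalized counts of 790.4, 236 and 19.4 in manual node libraries against 169, 0 and 0. Its LCM values were 103, 9.97 and 1815 against 0, 0 and 0, so that only manual lateral 1 held any count. The 11 counts in LCM node 2 lie wholly within the share that matches manual lateral 1, so the excess of ADAMTS3 rests on the other 5 embryos. ASXL1, a Polycomb-associated chromatin regulator, had 72.3, 86.7 and 10.3 against 25.2, 31.4 and 1.04 in the manual embryos and, by LCM, 266, 3.62 and 823 against 1.05, 0 and 43.2. Its LCM node 2 value is 4 counts, 57.5% of them within that share.

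Genes of the matrix and of stem zone signals reached the ratio in 5 embryos. HAS2, which makes hyaluronan, had 9586, 14691 and 6485 in manual node libraries against 12742, 2249 and 5070.2, and 8278, 11701 and 6320.2 against 3501, 1620.1 and 4472 in LCM embryos, with the lateral value higher in manual 1 alone. VCAN, the proteoglycan that binds hyaluronan, had 2895, 2163 and 2022 against 1313, 729 and 2928 and then 1734, 14221 and 8387 against 1021, 6246 and 5148, with manual 3 as the exception. FGF8, a ligand of the stem zone, had 355, 1066 and 1363 against 223, 697 and 481 in the manual embryos and, by LCM, 1645, 4219.5 and 3099.8 against 1901, 1796 and 2465, with LCM 1 as the exception. HAS2, VCAN and FGF8 are only some of the genes at 5 embryos that a rule picked from lists chosen with earlier results known. FBLN2, EPHA1, WNT5A and FGF3 were among the others. All FBLN2 counts in LCM node 2 lie within the share that matches manual lateral 1. The values of these genes, and of ADAMTS3 and ASXL1 from the same lists, are a description.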
